A study of Mus musculus with 9 samples.

Results

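The 37 mouse genes described here encode lysosomal hydrolases, lysosomal membrane proteins and regulators of the lysosome. They were chosen by name, as a list of gene symbols matched to the gene models of the count table, a rule that uses no measured value. The list itself was drawn up with earlier results of these data known. All 37 were found among the 57126 gene models, and all 37 were among the 17555 genes with enough counts to be tested. By role they were 10 proteases, the thiol reductase Ifi30, 9 glycosidases and sulfatases, 5 genes of lipid handling, 7 membrane proteins, progranulin, 2 proton pump subunits and 2 transcription factors.

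Expression was measured by RNA sequencing of plasmacytoid dendritic cells (pDCs), a rare dendritic cell type known for secreting type I interferon when its endosomal receptors meet nucleic acids. The mouse cells, sorted by flow cytometry, came from treatment with oxidized mitochondrial DNA (Ox-mtDNA), mitochondrial DNA (mtDNA) or phosphate-buffered saline (PBS, the vehicle), with 3 libraries in each of the 3 groups. The question was how the oxidized and the other mitochondrial DNA change gene expression in these cells. The genotype, strain and age of the mice, the doses, the duration of treatment and whether cells or animals were treated are not given in the sources used here. Nothing in the labels says that the libraries of a group came from separate cultures or animals. The p-values thus reflect variation among these libraries only, which may be technical. In bulk RNA, fewer cells of a type and less RNA per cell cannot be told apart.

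Lysosomes are acidic organelles in which hydrolases degrade proteins, glycans, lipids and nucleic acids that arrive by endocytosis and autophagy. A vacuolar proton pump (V-ATPase) acidifies the lumen, glycosylated membrane proteins line the inner face of the membrane, and the transcription factors TFEB and TFE3 raise the expression of many lysosomal genes once signalling at the lysosome surface releases them to the nucleus. In dendritic cells the same compartments hold Toll-like receptors for nucleic acids, and cathepsins and legumain are known to cleave those receptors into their active form.

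TFEB and TFE3 bind an E-box, the palindrome CACGTG, which in many lysosomal promoters is extended to TCACGTGA, often with a further G before and C after it. RefSeq promoter windows of build GRCm38.p6, 250 bases before to 50 bases after the gene start, were available for 32 of the 37 genes (38 windows), and both strands were covered because each of these motifs is its own reverse complement. CACGTG was present in 12 of the 32 genes (37.5%), against 8.09% of all 27025 genes with a window and 11.5% of the 10756 tested genes with one. TCACGTGA, which contains CACGTG, was present in 5 of the 32 genes (15.6%), against 1.12% of all genes with a window and 2.13% of the tested ones. TCACGTGA with the G before and the C after it was present in 0 of the 32 genes, against 0.370% and 0.753%, which says only that these letters are not in these windows. Lamp1 carried 4 copies of CACGTG within the last 80 bases before its start, at 61, 45, 28 and 15 bases before it, and is shown because it held the most copies. The stretch is chr8:13159081-13159160 on the plus strand, with each CACGTG in capitals.
Lamp1: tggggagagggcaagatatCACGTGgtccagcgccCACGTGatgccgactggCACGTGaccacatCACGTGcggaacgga
The 5 genes with TCACGTGA are shown next as 20 bases in the direction of transcription, again with CACGTG in capitals. The capitals lie at chr7:142387920-142387925 for Ctsd, chr2:164833761-164833766 for Ctsa, chr8:105566062-105566067 for Atp6v0d1, chr8:70766854-70766859 for Ifi30 and chr8:3500474-3500479 for Mcoln1. Ctsd, Atp6v0d1 and Ifi30 are on the minus strand, and Ctsa and Mcoln1 on the plus strand.
Ctsd: cgcgtctCACGTGacccgtt
Ctsa: aaactgtCACGTGatgcaga
Atp6v0d1: ctgcggtCACGTGagacgcg
Ifi30: aaaacttCACGTGaccagac
Mcoln1: ccccgctCACGTGaccgcgg
These motifs lay 98 bases before the start in Ctsd, 12 in Ctsa, 3 in Atp6v0d1, 196 in Ifi30 and 45 in Mcoln1. The same Ctsa window held a second TCACGTGA, not shown, with its CACGTG at chr2:164833778-164833783, 5 bases after the start. The other 6 genes with CACGTG in the window were Arsa, Ctsl, Gaa, Glb1, Lgmn and Naglu. A match is a description of the letters and was not tied to binding of any factor in these cells.

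Total counts ran between 16029951 and 25378884 per library. The replicate 3 libraries of all 3 groups stood apart from the other 6 on a first principal component that held 72.3% of the variance. Ox-mtDNA replicates 1 and 2 also lay apart from each other. Between them 27.7% of tested genes differed over 2-fold, against 1.67% between the same numbers of mtDNA and 2.32% between those of PBS. This difference does not tell which library was displaced. On the second component they lay at -52.7 and -35.0, against 13.1 to 28.4 for replicates 1 and 2 of mtDNA and PBS. Ox-mtDNA replicate 1 was highest of the 9 libraries for 12.7% and lowest for 12.5% of tested genes, and Ox-mtDNA replicate 2 for 19.4% and 18.4%. The sorted cell type was visible, with the pDC marker Siglech at 1194 to 2440 CPM in the 9 libraries and none of 12 pDC markers under 1 CPM in all of them. The markers were uneven, with Klk1 at only 6.03 to 17.2 CPM. In PBS replicates 1, 2 and 3, Irf8 had 2680, 2944 and 389 CPM and Pacsin1 215, 276 and 5.62 CPM. Siglech (1717, 2258 and 2440 CPM) and Bst2 (851, 1160 and 1434 CPM) went the other way. Summed over those 12 markers, levels were 4670 to 11344 CPM in Ox-mtDNA, 7079 to 10603 CPM in mtDNA and 8661 to 12669 CPM in PBS libraries, and the lowest sum was that of Ox-mtDNA replicate 2. That library also had the highest sum of 8 B cell markers, 649 CPM, against 126 to 293 CPM in the other Ox-mtDNA, 175 to 224 CPM in mtDNA and 267 to 402 CPM in PBS libraries. Sums of 12 monocyte and macrophage markers, cells rich in lysosomes, were 528 to 810 CPM in Ox-mtDNA, 508 to 558 CPM in mtDNA and 602 to 786 CPM in PBS libraries, with C1qa and Mertk under 1 CPM in each. No marker was at 0 in all 9 libraries, and the part of these differences in the results below was not tested.

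Levels were compared between genes as RPKM, scaled counts (CPM, counts set to a common library size) divided by exon length, and between libraries as CPM. The median SE of a log2 fold change was 0.37 over the 111 tests of the 37 genes, between 0.21 and 2.15. Psap, with 3552 RPKM over the 9 libraries, stood highest, followed by Grn with 649, Laptm5 with 605 and Ctss with 442, and 14 genes were over 100 RPKM. Arsa (5.13 RPKM) stood lowest, and 3 genes were under 10. Together the 37 genes summed to 22269 ± 2647 CPM in Ox-mtDNA, 22039 ± 1830 CPM in mtDNA and 22543 ± 1878 CPM in PBS libraries (SD, n = 3 each), sums that differed by less than the spread within the groups. Psap alone held 9871, 9810 and 9492 CPM of these sums, so they mostly follow the most abundant genes.

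**Figure D1:**
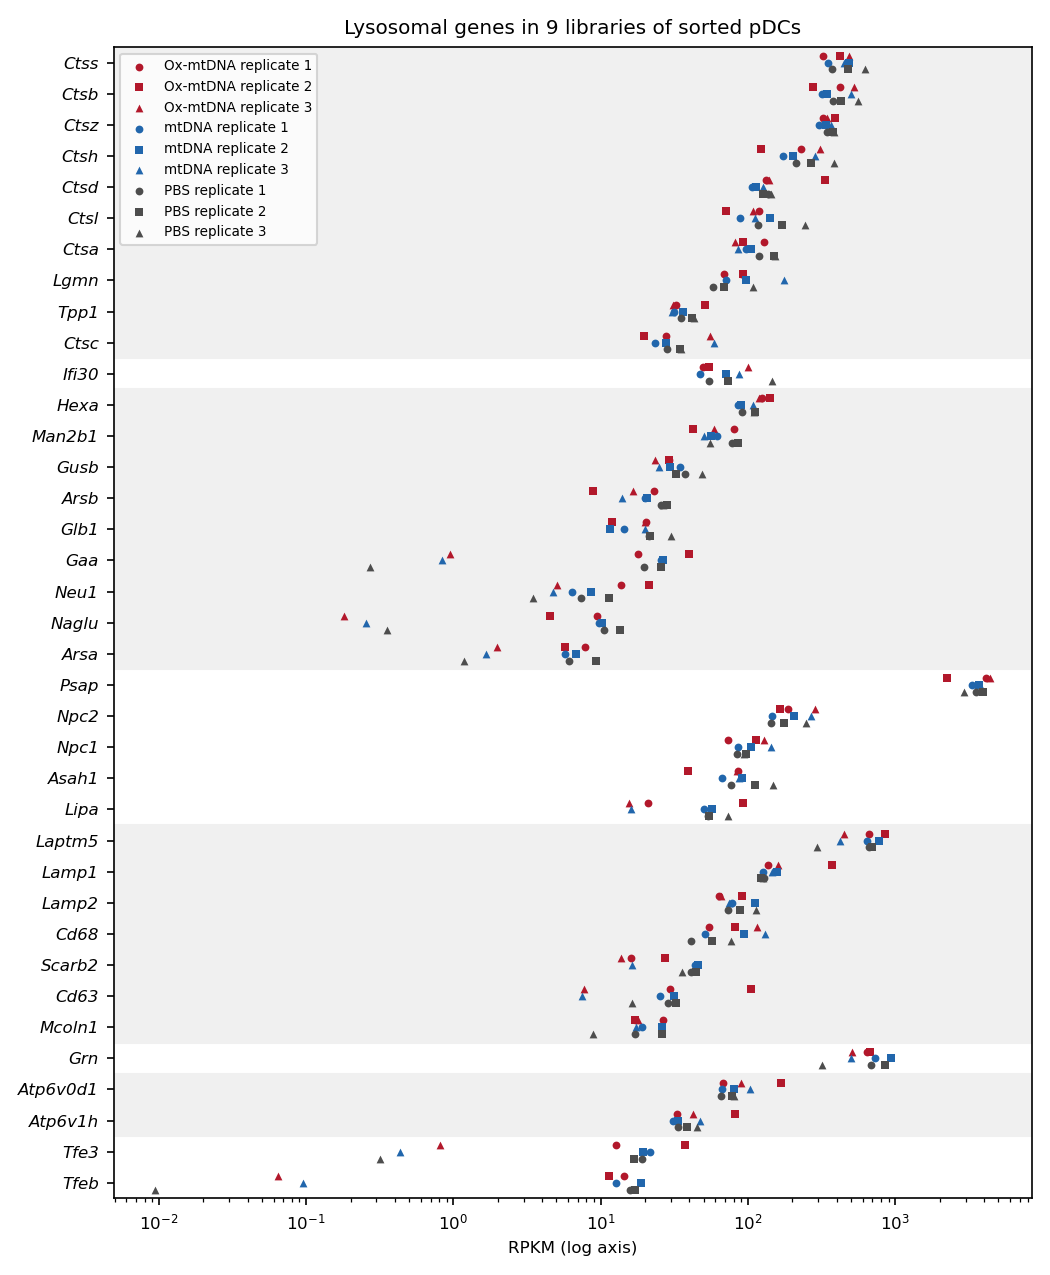
Level of each of the 37 genes in each of the 9 libraries, as RPKM on a log axis, with 1 point per library coloured by group (Ox-mtDNA, mtDNA, PBS) and genes ordered within their roles. Psap lies highest at a mean of 3552 RPKM, and the points of Tfeb, Tfe3, Gaa and Naglu split widely, with low replicate 3 values in all 3 groups.

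In the comparison of Ox-mtDNA with PBS, Lamp1 and Hexa were higher and Scarb2, Gusb, Arsb and Glb1 lower in all Ox-mtDNA libraries than in any PBS library, but 0 of the 37 genes passed the test at an adjusted p of 0.05 (edgeR quasi-likelihood test with Benjamini-Hochberg adjustment over all tested genes). The background was 0% of the 17555 genes. At an unadjusted p under 0.05 there were 2 of the 37, Scarb2 and Ctsl, both lower, against 9.81% of all tested genes in either direction. With the replicate block 6 of the 37 were at such a p, against 19.1%. DESeq2 and limma-voom passed 0 of the 37 as well, against 2.11% and 0% of all tested genes, as did edgeR with a replicate block (0.0057% of all tested genes) and with replicates 1 and 2 only (0.146%). The 2 non-overlapping higher genes stood against a background of 7.39% and the 4 lower ones against 8.08% (15.5% in either direction). Over the whole list 17 genes had a positive and 20 a negative log2 fold change, with a median of -0.06, where all tested genes had 53.8% positive, 46.2% negative and a median of 0.06. Without Ox-mtDNA replicate 2 the split was 12 positive and 25 negative with a median of -0.17, and without PBS replicate 2 the median was 0.10. By role, 7 of 10 proteases (median -0.12) and 6 of 9 glycosidases and sulfatases (median -0.27) were negative, while 5 of 7 membrane proteins (median 0.25) and both proton pump subunits (median 0.48) were positive. Without Ox-mtDNA replicate 2 the membrane proteins split 3 positive to 4 negative and the pump subunits 1 to 1, while 7 of 10 proteases and 7 of 9 glycosidases and sulfatases were negative.

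In the comparison of mtDNA with PBS, Ctsa, Glb1 and Arsb were lower in all mtDNA libraries than in any PBS library, and again 0 of 37 genes passed the edgeR quasi-likelihood test after Benjamini-Hochberg adjustment, against 0% of all tested genes. At an unadjusted p under 0.05 there were 0 of 37, against 2.62% of all tested genes, and with the replicate block 3, against 5.68%. DESeq2 and limma-voom each had 1 gene at that unadjusted p, Ctsa, against 4.22% and 1.76% of all tested genes, and 0 after adjustment, where DESeq2 called 0.0797% of all tested genes. The 3 lower genes without overlap stood against a background of 4.96%, and 0 were higher without overlap, against 5.58% (10.5% in either direction). Of the 37 genes, 13 were positive and 24 negative with a median of -0.18, where all tested genes had 52% positive, 48% negative and a median of 0.02. Differences taken within each replicate number were negative in all 3 numbers for 16 genes and positive in all 3 for 8, against 19.4% and 20.8% of all tested genes. Proteases were 8 of 10 negative (median -0.23) and glycosidases and sulfatases 8 of 9 negative (median -0.27), and without the replicate 3 libraries these counts were 9 of 10 and 8 of 9. Membrane proteins were 4 positive and 3 negative (median 0.16). This comparison shares its PBS libraries with the one before, so the pair are not independent.

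In the direct comparison of Ox-mtDNA with mtDNA, which shares the Ox-mtDNA and mtDNA libraries with the other comparisons, Ctsd and Hexa were higher in all Ox-mtDNA libraries than in any mtDNA library and no gene was lower without overlap. Of the 37 genes 0 passed the edgeR quasi-likelihood test after Benjamini-Hochberg adjustment, against 0% of all tested genes, and 0 were at an unadjusted p under 0.05, against 2.4%. With the replicate block 3 were, against 6.81%. DESeq2 and limma-voom also gave 0 of 37 on both counts, where DESeq2 called 0.0057% of all tested genes. The 2 higher genes without overlap stood against 2.04% of all tested genes and the 0 lower ones against 2.79% (4.83% in either direction). The list had 21 positive and 16 negative values with a median of 0.04, and all tested genes 54.2% positive, 45.8% negative and a median of 0.04. Without Ox-mtDNA replicate 2 it had 18 positive and 19 negative with a median of -0.01.

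Leaving out each library in turn, the log2 fold change turned sign or moved by over 1.5 times for 33 of 37 genes in Ox-mtDNA against PBS, all but Ctsa, Gusb, Hexa and Scarb2. It did so for 32 in mtDNA against PBS, all but Arsb, Ctsa, Glb1, Man2b1 and Tpp1, and for 35 in Ox-mtDNA against mtDNA, all but Hexa and Scarb2. The share over all tested genes was not counted, so these counts are not a trait of the list. The limit of 1.5 times is relative to the estimate, so a small move exceeds it where the estimate is small.

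**Figure D2:**
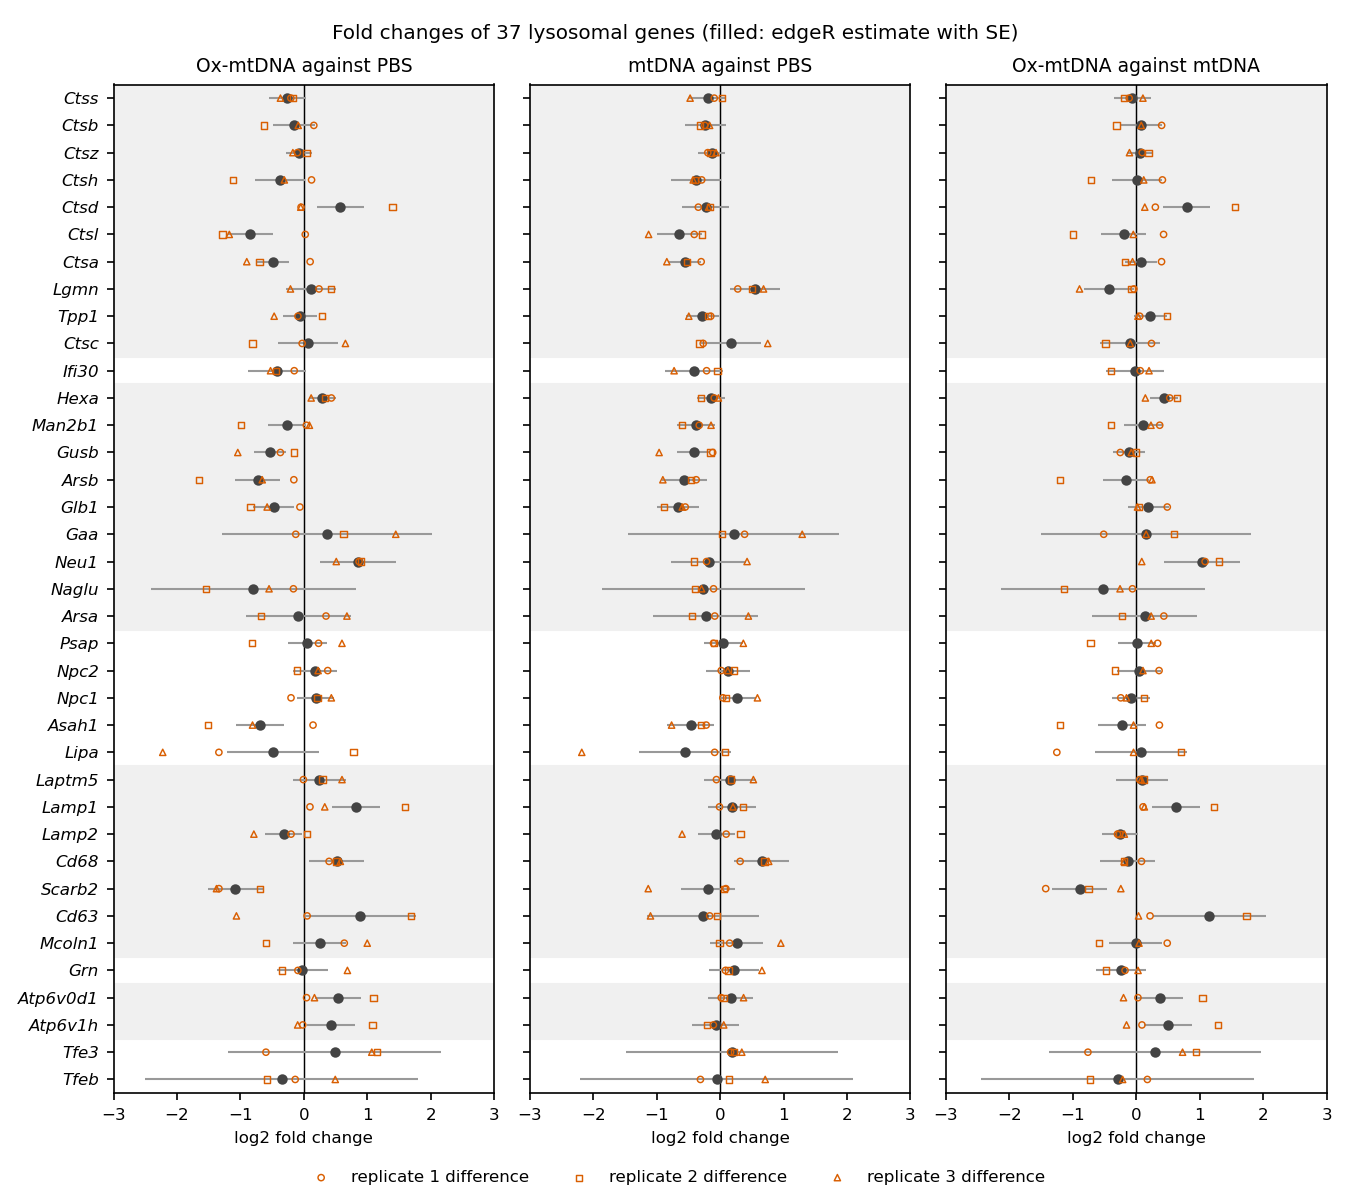
Log2 fold change of each of the 37 genes in the 3 comparisons (1 panel each, Ox-mtDNA against PBS, mtDNA against PBS and Ox-mtDNA against mtDNA), with the edgeR estimate and its SE and small points for the differences within each replicate number. Scarb2 lies at -1.08 for Ox-mtDNA against PBS and at -0.89 against mtDNA, while the widest SE are those of Tfeb, Tfe3, Gaa and Naglu.

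Among the proteases, Ctss (cathepsin S), a cysteine protease known for trimming the invariant chain of MHC class II, had the highest level per length, 442 RPKM. Values per library are given in the order of replicates 1, 2 and 3, and those of Ctss were 435, 573 and 657 CPM in Ox-mtDNA libraries, 471, 657 and 611 CPM in mtDNA libraries and 502, 646 and 849 CPM in PBS libraries. The groups overlapped, and replicate 1 was the lowest library of each group. Ctsb (cathepsin B), an abundant endopeptidase at 417 RPKM, had 1992, 1314 and 2504 CPM in Ox-mtDNA libraries, 1511, 1633 and 2374 CPM in mtDNA libraries and 1787, 2028 and 2663 CPM in PBS libraries. Replicate 3 was highest in each group, and the lowest of the 9 libraries was Ox-mtDNA replicate 2. Ctsz (cathepsin Z), a carboxypeptidase, varied little, with 464, 561 and 492 CPM in Ox-mtDNA libraries, 435, 492 and 531 CPM in mtDNA libraries and 498, 546 and 556 CPM in PBS libraries. Its log2 fold change was -0.08 (SE 0.21) for Ox-mtDNA against PBS and -0.13 (SE 0.21) for mtDNA against PBS, both within the spread of the libraries. Ctsh (cathepsin H), an aminopeptidase, had 372, 198 and 497 CPM in Ox-mtDNA libraries, 280.0, 326 and 459 CPM in mtDNA libraries and 343, 430.3 and 616 CPM in PBS libraries, with replicate 3 highest in each group and Ox-mtDNA replicate 2 lowest of all.

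Ctsl (cathepsin L), an endopeptidase at chr13:64507151-64518704 (GRCm39), was at 729, 434 and 668 CPM in Ox-mtDNA libraries, 541, 869 and 691 CPM in mtDNA libraries and 718, 1058 and 1510.4 CPM in PBS libraries. PBS replicates 2 and 3 lay above all Ox-mtDNA libraries, while replicate 1 was alike in both groups, so the groups overlapped. The mean was 611 ± 156 CPM in Ox-mtDNA, 700.5 ± 164 CPM in mtDNA and 1095 ± 397 CPM in PBS libraries (SD, n = 3 each). The log2 fold change against PBS was -0.84 (SE 0.36) for Ox-mtDNA, with an unadjusted p of 0.0442 and an adjusted p of 0.495 (edgeR quasi-likelihood test, Benjamini-Hochberg), and -0.65 (SE 0.35) for mtDNA. Without PBS replicate 3 these values were -0.55 for Ox-mtDNA and -0.35 for mtDNA. Ctsa (cathepsin A), the protective protein that stabilizes beta-galactosidase and neuraminidase 1 in the lysosome, lies at chr2:164674793-164682952 and had 471, 339.5 and 302 CPM in Ox-mtDNA libraries, 357, 383 and 315 CPM in mtDNA libraries and 439.7, 552 and 564 CPM in PBS libraries. All 3 mtDNA libraries were below all 3 PBS libraries, and Ox-mtDNA replicate 1 lay within the PBS range. For mtDNA against PBS the log2 fold change was -0.56 (SE 0.25), and replicates 1, 2 and 3 differed by -0.30, -0.53 and -0.84, with an unadjusted p of 0.0566 (edgeR quasi-likelihood test, adjusted p = 0.99997). For Ox-mtDNA against PBS it was -0.48 (SE 0.25). Exons of Ctsa share 495 bases with Pltp on the other strand, and as the counting used no strand, fragments in this stretch were counted for both genes. The total counts of Pltp were 72.4% of those of Ctsa.

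Ctsd (cathepsin D), the main aspartic protease of lysosomes, lies at chr7:141929648-141941775 and had 280.1, 705 and 297 CPM in Ox-mtDNA libraries, 227, 239.9 and 271 CPM in mtDNA libraries and 289, 267 and 307 CPM in PBS libraries. Ox-mtDNA replicate 2 was 2.29 times the highest other library, and the other Ox-mtDNA libraries lay within the PBS range and just above the mtDNA range. The log2 fold change of Ox-mtDNA was 0.80 (SE 0.37) against mtDNA (edgeR quasi-likelihood test, unadjusted p = 0.0628, Benjamini-Hochberg adjusted p = 0.99995) and 0.57 (SE 0.37) against PBS. Without Ox-mtDNA replicate 2 these were 0.22 and -0.01. Ctsd also shares 670 exon bases on its own strand with the gene model Gm49369, whose total counts were 55.8% of those of Ctsd. Lgmn (legumain), an asparagine-specific endopeptidase, had 138, 185 and 189 CPM in Ox-mtDNA libraries, 142, 196 and 352 CPM in mtDNA libraries and 117, 138 and 219 CPM in PBS libraries. The highest value was that of mtDNA replicate 3, and the groups overlapped, with a log2 fold change for mtDNA against PBS of 0.54 (SE 0.39), and 0.02 without mtDNA replicate 3. Ctsc (cathepsin C), which activates granule serine proteases in other immune cells and had the lowest level per length of the proteases (34.6 RPKM), was at 147, 106 and 295 CPM in Ox-mtDNA libraries, 124, 148 and 315 CPM in mtDNA libraries and 149.7, 185 and 187 CPM in PBS libraries. Replicate 3 of Ox-mtDNA and of mtDNA stood above the other 7 libraries. Tpp1 (tripeptidyl peptidase) lay between 109 and 181 CPM in all libraries, and was named after its values were seen. Ifi30 (GILT), the interferon-inducible thiol reductase that unfolds disulfide-bonded antigens, had 48.1, 52.9 and 98.2 CPM in Ox-mtDNA libraries, 46.1, 69.98 and 85.4 CPM in mtDNA libraries and 53.5, 71.97 and 142 CPM in PBS libraries, with replicate 3 highest in each group and a log2 fold change for Ox-mtDNA against PBS of -0.42 (SE 0.46), and 0.07 without PBS replicate 3. Ifi30 shares 155 exon bases with 6330537M06Rik, whose total counts were 41.1% of its own.

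Among the glycosidases and sulfatases, Hexa, the alpha subunit of beta-hexosaminidase, had the highest level per length (109 RPKM) and lies at chr9:59446823-59472392. It was at 247, 279.8 and 238 CPM in Ox-mtDNA libraries, 171, 179.7 and 216 CPM in mtDNA libraries and 183, 222 and 219.8 CPM in PBS libraries. All 3 Ox-mtDNA libraries were above the 6 others. The means were 255 ± 21.97 CPM in Ox-mtDNA, 189 ± 23.6 CPM in mtDNA and 208 ± 21.996 CPM in PBS libraries (SD, n = 3 each). The Ox-mtDNA log2 fold change was 0.43 (SE 0.22) against mtDNA and 0.29 (SE 0.22) against PBS, with a Benjamini-Hochberg adjusted p of 0.790 against PBS (edgeR quasi-likelihood test), and leaving out any 1 library gave 0.35 to 0.58 against mtDNA and 0.20 to 0.33 against PBS. Hexa was the sole gene of the 37 whose 3 Ox-mtDNA libraries lay above all libraries of both other groups. Of all tested genes 7.39% were higher without overlap against PBS and 2.04% against mtDNA, and the share with both was not counted.

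Arsb (arylsulfatase B), which removes sulfate from dermatan sulfate, lies at chr13:93908138-94079524 and had 93.4, 35.97 and 67.2 CPM in Ox-mtDNA libraries, 80.2, 83.3 and 56.6 CPM in mtDNA libraries and 104, 115 and 106 CPM in PBS libraries. All Ox-mtDNA and all mtDNA libraries were below the PBS libraries, which were close together, with 65.5 ± 28.8 CPM in Ox-mtDNA, 73.4 ± 14.6 CPM in mtDNA and 108 ± 5.49 CPM in PBS (SD, n = 3 each). The log2 fold change against PBS was -0.73 (SE 0.36) for Ox-mtDNA (edgeR quasi-likelihood test, Benjamini-Hochberg adjusted p = 0.568) and -0.56 (SE 0.36) for mtDNA (adjusted p = 0.99997). Without Ox-mtDNA replicate 2 the value for Ox-mtDNA was -0.45. Glb1 (beta-galactosidase), at chr9:114230144-114303445, had 48.5, 28.5 and 48.2 CPM in Ox-mtDNA libraries, 34.5, 27.7 and 47.6 CPM in mtDNA libraries and 50.7, 51.5 and 72.3 CPM in PBS libraries. Both DNA-treated groups again lay below all PBS libraries, though the highest Ox-mtDNA library came close to the lowest PBS library. Its log2 fold change against PBS was -0.48 (SE 0.33) for Ox-mtDNA, or -0.28 without Ox-mtDNA replicate 2, and -0.67 (SE 0.33) for mtDNA. Without strand, Arsb shares 463 exon bases with Gm47210, whose total counts were 13.3% of those of Arsb, and Glb1 shares 165 with Tmppe, at 33.6%. Gusb (beta-glucuronidase), at chr5:130017852-130031890, had 109, 110.1 and 88.5 CPM in Ox-mtDNA libraries, 129.8, 111 and 93.6 CPM in mtDNA libraries and 141, 123 and 183 CPM in PBS libraries. Its Ox-mtDNA libraries were all below its PBS libraries, and the mtDNA libraries overlapped with both. The log2 fold change against PBS was -0.54 (SE 0.25) for Ox-mtDNA and -0.42 (SE 0.25) for mtDNA, the second being -0.25 without PBS replicate 3.

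Neu1 (neuraminidase 1), which removes terminal sialic acids, lies at chr17:35150229-35154897 and had 33.8, 52.9 and 12.4 CPM in Ox-mtDNA libraries, 15.7, 21.1 and 11.7 CPM in mtDNA libraries and 18.3, 28.2 and 8.58 CPM in PBS libraries. Ox-mtDNA was the highest group within each replicate number, by log2 differences of 0.87, 0.90 and 0.51 from PBS and 1.08, 1.31 and 0.09 from mtDNA, but the groups overlapped across numbers, with replicate 3 low in all 3. In Ox-mtDNA the log2 fold change was 0.85 (SE 0.60) against PBS and 1.03 (SE 0.60) against mtDNA, and without Ox-mtDNA replicate 2 it was 0.32 and 0.51. Man2b1, the acid alpha-mannosidase, had 306, 163 and 225 CPM in Ox-mtDNA libraries, 237, 214 and 191 CPM in mtDNA libraries and 298, 325 and 212 CPM in PBS libraries, with overlapping groups and a log2 fold change for mtDNA against PBS of -0.38 (SE 0.30). Arsa (arylsulfatase A), which acts on sulfatide, had 27.2, 20.1 and 6.86 CPM in Ox-mtDNA libraries, 20.02, 23.6 and 5.76 CPM in mtDNA libraries and 21.3, 32.3 and 4.10 CPM in PBS libraries. Its replicate 3 was the lowest library of each group.

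Psap, the precursor of the saposins that present sphingolipids to their hydrolases, lies at chr10:60113449-60138376 and ranged between 2243 and 4415 RPKM. It was at 11383, 6143 and 12089 CPM in Ox-mtDNA libraries, 9019.9, 10134 and 10277 CPM in mtDNA libraries and 9698, 10805 and 7974 CPM in PBS libraries. The lowest library was Ox-mtDNA replicate 2, the groups overlapped, and the log2 fold change was 0.06 (SE 0.31) for Ox-mtDNA against PBS, 0.05 (SE 0.31) for mtDNA against PBS and 0.01 (SE 0.31) for Ox-mtDNA against mtDNA. Asah1 (acid ceramidase) had 236, 109 and 233 CPM in Ox-mtDNA libraries, 184, 252 and 241 CPM in mtDNA libraries and 214, 311 and 409.6 CPM in PBS libraries. Ox-mtDNA replicate 2 was again lowest, and the log2 fold change against PBS was -0.69 (SE 0.38) for Ox-mtDNA and -0.47 (SE 0.37) for mtDNA. It was -0.42 for Ox-mtDNA without Ox-mtDNA replicate 2, and -0.23 for mtDNA without PBS replicate 3. Npc2, the soluble carrier of cholesterol that hands it to Npc1, had 616, 539.9 and 947 CPM in Ox-mtDNA libraries, 481, 679 and 881 CPM in mtDNA libraries and 475, 582 and 811 CPM in PBS libraries, and replicate 3 was highest in each group. Npc1, the membrane transporter for cholesterol leaving the lysosome, had 379, 589 and 667 CPM in Ox-mtDNA libraries, 450.0, 543 and 743 CPM in mtDNA libraries and 437, 508 and 494 CPM in PBS libraries, with overlapping groups.

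Lipa (lysosomal acid lipase), which splits cholesteryl esters and triglycerides, had the lowest level per length of the lipid genes (48.2 RPKM) and lies at chr19:34469718-34504874. It had 62.4, 276 and 46.2 CPM in Ox-mtDNA libraries, 149, 169 and 47.7 CPM in mtDNA libraries and 159, 160.3 and 218 CPM in PBS libraries. Ox-mtDNA replicates 1 and 3 were below all PBS libraries, and Ox-mtDNA replicate 2 was the highest of the 9. The log2 fold change for Ox-mtDNA against PBS was -0.48 (SE 0.72) (edgeR quasi-likelihood test, Benjamini-Hochberg adjusted p = 0.974), and -1.73 without Ox-mtDNA replicate 2.

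Scarb2 (LIMP-2), the membrane protein that carries glucocerebrosidase to lysosomes, lies at chr5:92589173-92653496 and had the smallest p of the list. It had 75.5, 128 and 64.5 CPM in Ox-mtDNA libraries, 204, 216 and 76.6 CPM in mtDNA libraries and 192, 208 and 169 CPM in PBS libraries. The 3 Ox-mtDNA libraries lay below the 3 PBS libraries, and mtDNA replicates 1 and 2 lay with PBS while mtDNA replicate 3 lay with Ox-mtDNA. Means were 89.4 ± 33.9 CPM in Ox-mtDNA, 166 ± 77.4 CPM in mtDNA and 189 ± 19.6 CPM in PBS libraries (SD, n = 3 each). For Ox-mtDNA against PBS the log2 fold change was -1.08 (SE 0.43), and replicates 1, 2 and 3 differed by -1.34, -0.69 and -1.38, with an unadjusted p of 0.0362 and a Benjamini-Hochberg adjusted p of 0.482 (edgeR quasi-likelihood test). With the replicate number as a block it was -1.15 (SE 0.30), with an adjusted p of 0.138, the lowest over the 37 genes and 19 alternative settings in this comparison. Leaving out any 1 library gave -1.45 to -0.94. Against mtDNA the log2 fold change of Ox-mtDNA was -0.89 (SE 0.43), lower in all 3 replicate numbers. That of mtDNA against PBS was -0.19 (SE 0.43), and 0.10 without mtDNA replicate 3.

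Lamp1, a heavily glycosylated protein that makes up much of the lysosomal membrane and whose promoter held the 4 E-boxes shown above, lies at chr8:13209161-13225338 (GRCm39). It had 305, 825 and 356 CPM in Ox-mtDNA libraries, 283, 353 and 326 CPM in mtDNA libraries and 285, 274 and 283 CPM in PBS libraries. Ox-mtDNA replicate 2 was 2.32 times the highest other library, and the other Ox-mtDNA libraries were above the PBS libraries by a narrow margin. Means were 495 ± 287 CPM in Ox-mtDNA, 321 ± 34.96 CPM in mtDNA and 281 ± 6.12 CPM in PBS libraries (SD, n = 3 each). For Ox-mtDNA against PBS the log2 fold change was 0.82 (SE 0.38) (edgeR quasi-likelihood test, unadjusted p = 0.0619, Benjamini-Hochberg adjusted p = 0.539), and 0.22 without Ox-mtDNA replicate 2. Against mtDNA it was 0.63 (SE 0.38), and 0.03 without that library. Lamp1 shares 177 exon bases with Grtp1 on the other strand, whose total counts were 12.2% of its own. Lamp2, its paralog with a role in autophagy, had 319, 461 and 329 CPM in Ox-mtDNA libraries, 392, 558 and 375 CPM in mtDNA libraries and 367, 447 and 568 CPM in PBS libraries, and the groups overlapped. Its log2 fold change was -0.32 (SE 0.29) for Ox-mtDNA against PBS, or -0.15 without PBS replicate 3, and -0.06 (SE 0.29) for mtDNA against PBS.

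Cd68 (macrosialin), a glycoprotein of late endosomes abundant in macrophages, had 67.9, 102 and 144 CPM in Ox-mtDNA libraries, 64.2, 117 and 165 CPM in mtDNA libraries and 51.4, 71.97 and 96.7 CPM in PBS libraries. Within each replicate number PBS was the lowest group, and across numbers the groups overlapped. Its log2 fold change against PBS was 0.51 (SE 0.43) for Ox-mtDNA (edgeR quasi-likelihood test, Benjamini-Hochberg adjusted p = 0.848) and 0.65 (SE 0.44) for mtDNA (adjusted p = 0.99997). Without replicate 3 of the treated group these were 0.15 for Ox-mtDNA and 0.24 for mtDNA. Of the 12 monocyte and macrophage markers 6 were highest and 2, Csf1r and Ly6c2, lowest in Ox-mtDNA replicate 2. The part of these markers in the Cd68 values was not tested. Cd63, a tetraspanin of late endosomes and exosomes, had 42.7, 152 and 11.1 CPM in Ox-mtDNA libraries, 36.7, 45.4 and 10.8 CPM in mtDNA libraries and 41.2, 46.97 and 23.7 CPM in PBS libraries. Ox-mtDNA replicate 2 was 3.24 times the highest other library, and replicate 3 was the lowest library of each group. For Ox-mtDNA against PBS the estimate for Cd63 was 0.88 (SE 0.88) on the log2 scale, and -0.48 without Ox-mtDNA replicate 2. Laptm5, a lysosomal membrane protein of blood cells that was the most expressed of these 7 per length, had 1725, 2202 and 1158 CPM in Ox-mtDNA libraries, 1665, 2022 and 1099 CPM in mtDNA libraries and 1735, 1798 and 764 CPM in PBS libraries, with replicate 3 lowest in each group. Mcoln1 (TRPML1), the calcium channel whose opening leads to TFEB activation and the least expressed of the 7 (19.5 RPKM), had 54.95, 35.5 and 36.8 CPM in Ox-mtDNA libraries, 39.1, 53.6 and 35.8 CPM in mtDNA libraries and 35.2, 53.98 and 18.2 CPM in PBS libraries, with overlapping groups. Grn (progranulin), a secreted and lysosomal glycoprotein that is cut into granulins, had 1497, 1576 and 1197 CPM in Ox-mtDNA libraries, 1694, 2191 and 1175 CPM in mtDNA libraries and 1599, 2001 and 743 CPM in PBS libraries. Replicate 3 was lowest in each group, and the log2 fold change was -0.02 (SE 0.40) for Ox-mtDNA against PBS and 0.22 (SE 0.40) for mtDNA against PBS, with -0.35 and -0.10 without PBS replicate 3.

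The proton pump was represented by Atp6v0d1, a subunit that couples the membrane sector to the stalk, and Atp6v1h, a regulatory subunit of the cytosolic sector. Atp6v0d1 lies at chr8:106251097-106292679 and had 110.4, 271 and 146 CPM in Ox-mtDNA libraries, 108, 131 and 168 CPM in mtDNA libraries and 107, 127 and 129.9 CPM in PBS libraries. Atp6v1h had 71.8, 179 and 92.1 CPM in Ox-mtDNA libraries, 67.5, 73.1 and 103 CPM in mtDNA libraries and 72.7, 84.2 and 98.7 CPM in PBS libraries. In both genes Ox-mtDNA replicate 2 was the highest of the 9 libraries and the other Ox-mtDNA libraries lay among or close to those of the other groups. For Ox-mtDNA against PBS the log2 fold change was 0.54 (SE 0.36) for Atp6v0d1, and 0.06 without Ox-mtDNA replicate 2. For Atp6v1h it was 0.42 (SE 0.37), and -0.07 without that library.

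The transcription factors were among the genes with the least stable values, as were Gaa and Naglu. Tfeb had 57.9, 45.5 and 0.258 CPM in Ox-mtDNA libraries, 51.3, 75.5 and 0.381 CPM in mtDNA libraries and 63.7, 68.6 and 0.038 CPM in PBS libraries. Tfe3 had 45.7, 135 and 2.94 CPM in Ox-mtDNA libraries, 77.9, 70.3 and 1.58 CPM in mtDNA libraries and 69.4, 60.5 and 1.14 CPM in PBS libraries. Replicate 3 was close to 0 in all 3 groups for both genes, with 5, 7 and 1 counts of Tfeb in replicate 3 of Ox-mtDNA, mtDNA and PBS against 858 to 1371 in the other 6 libraries. The log2 fold changes for Ox-mtDNA against PBS were -0.35 (SE 2.15) for Tfeb and 0.49 (SE 1.68) for Tfe3, and such SE allow no statement on either direction.

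**Figure D3:**
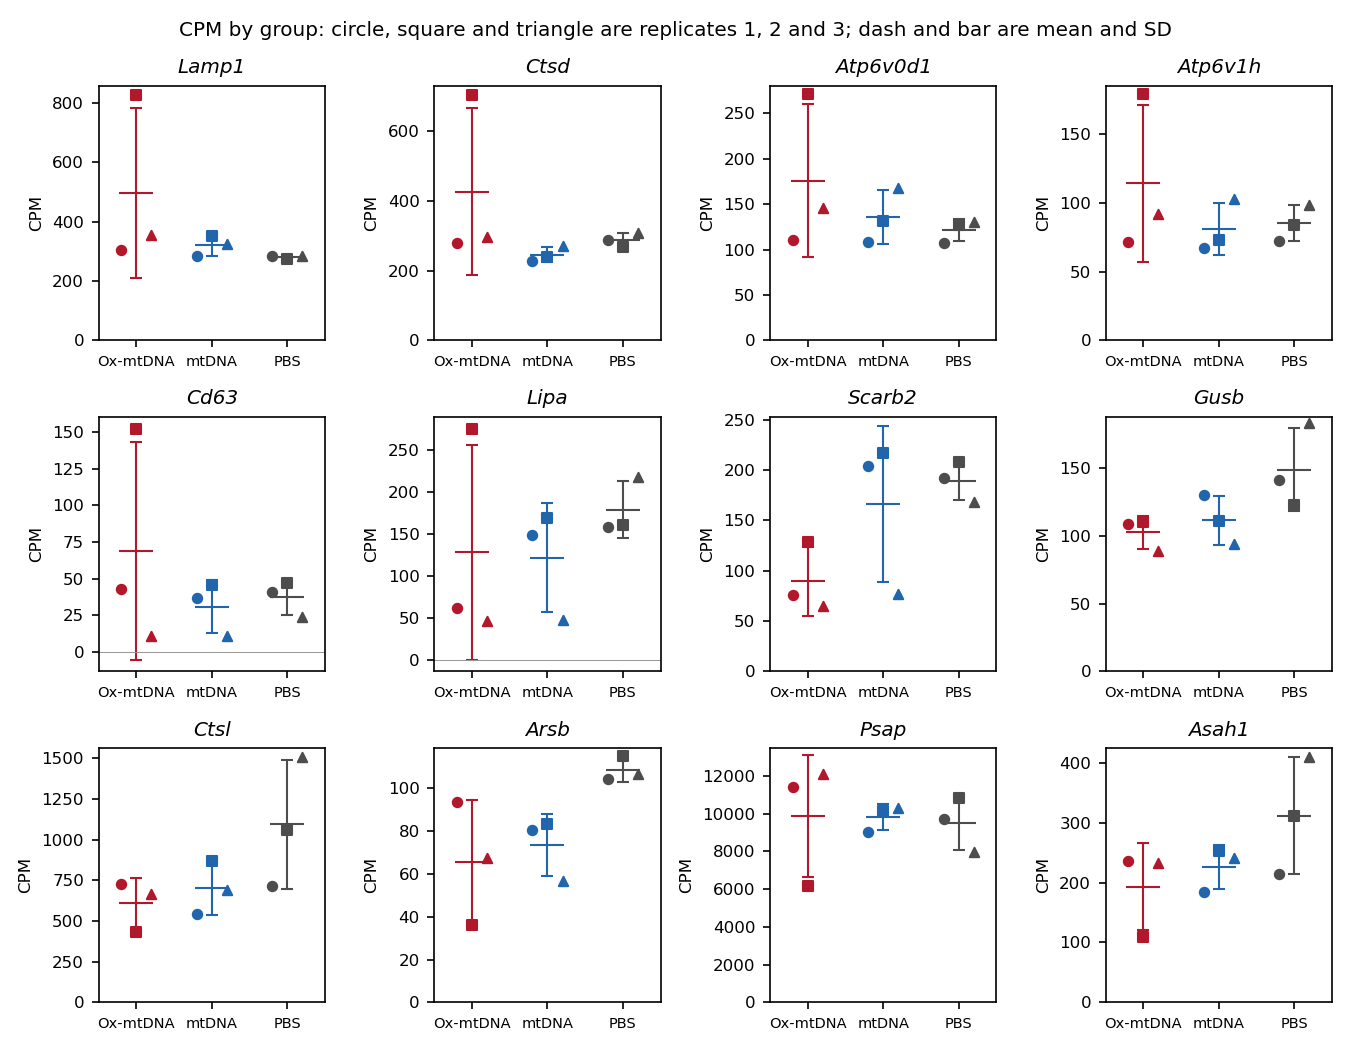
CPM of 12 of the genes in each library, by group from left to right (Ox-mtDNA, mtDNA, PBS), with points for the 3 libraries and lines for the mean and SD of a group. Ox-mtDNA replicate 2 is the highest point for Lamp1, Ctsd, Cd63, Lipa, Atp6v0d1 and Atp6v1h, while for Scarb2, Gusb and Arsb all Ox-mtDNA points lie below all PBS points.

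Ox-mtDNA replicate 2 was the highest of the 9 libraries for 13 of the 37 genes (35.1%, against 19.4% of all tested genes) and the lowest for 8 (21.6%, against 18.4%). The 13 were Ctsd, Ctsz, Tpp1, Hexa, Gaa, Neu1, Lipa, Lamp1, Laptm5, Cd63, Atp6v0d1, Atp6v1h and Tfe3, and the 8 were Ctsb, Ctsc, Ctsh, Ctsl, Arsb, Man2b1, Asah1 and Psap. Compared with Ox-mtDNA replicate 1, this library was over 2-fold higher for 8 genes and over 2-fold lower for 3, against 14.2% and 13.6% of all tested genes. In either direction these were 29.7% of the 37 genes, close to the 27.7% of all tested genes. The log2 differences ran up to 2.14 (Lipa) and down to -1.37 (Arsb). No gene of the list differed that much between replicates 2 and 1 of mtDNA or of PBS, against 1.67% and 2.32% of all tested genes. Ox-mtDNA replicate 2 was lowest for 7 of 12 pDC markers and highest for 6 of 8 B cell markers, and the part of this in the values above was not tested. Of the 8 genes over 2-fold higher, 7 had a promoter window and 4 of these held CACGTG, against 8 of the 25 other genes with a window, a split made after the values were seen. Over all 3 libraries a group, the 12 genes with CACGTG in the window had a median log2 fold change for Ox-mtDNA against PBS of 0.01 and the 20 genes with a window lacking it -0.04. For mtDNA against PBS these medians were -0.22 and -0.14.

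**Figure D4:**
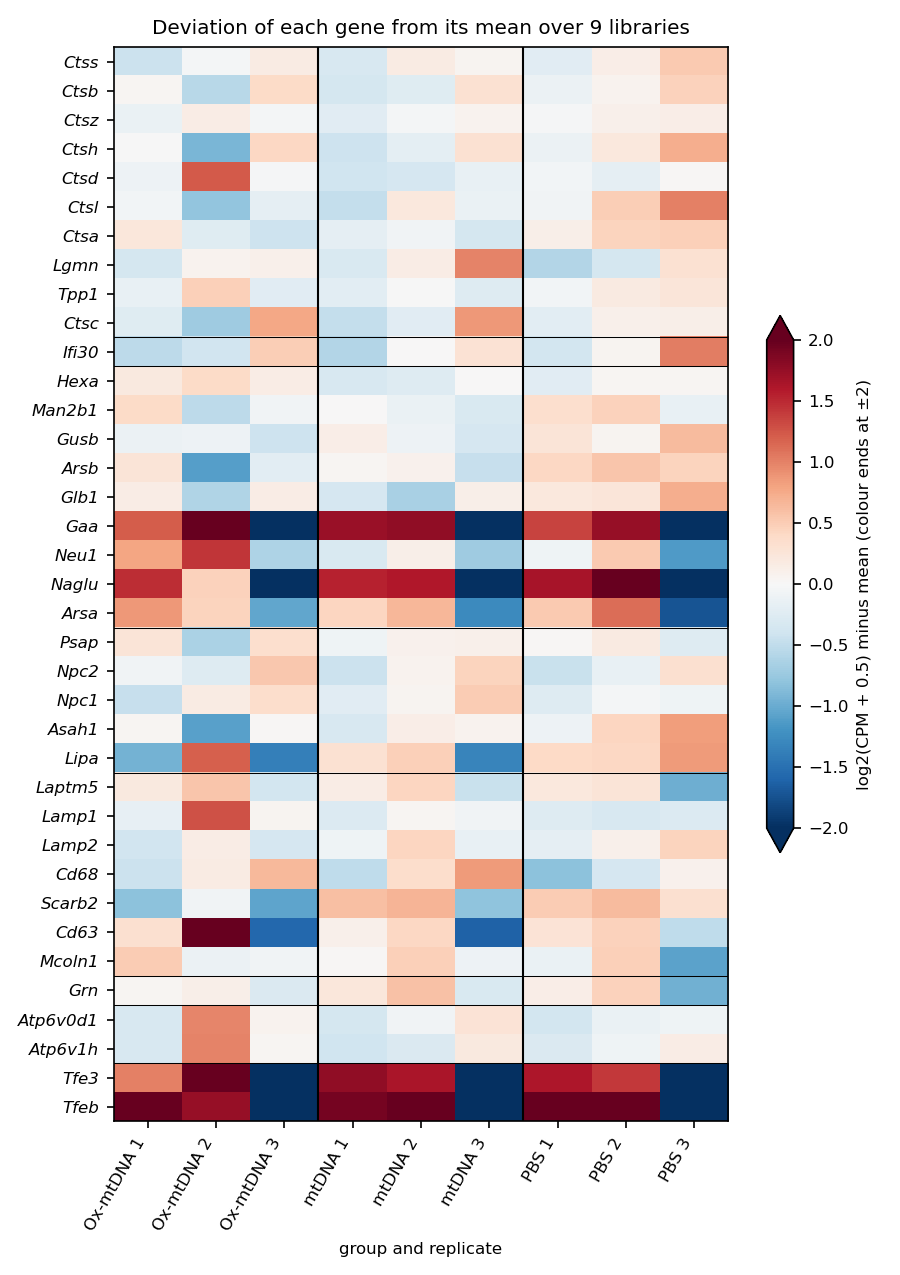
Heat map of each gene (down the page, by role) in each of the 9 libraries (across, Ox-mtDNA, mtDNA, PBS, replicates 1 to 3 in each), coloured by log2(CPM + 0.5) minus the gene's mean over the 9 libraries, with colours ending at -2 and 2. The columns of replicate 3 share deep negative values for Tfeb, Tfe3, Gaa and Naglu in all 3 groups, and Ox-mtDNA replicate 2 shows strong values of both signs.

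Replicate 3 was over 4-fold below the mean of replicates 1 and 2 (on the log2 scale) for 5 genes in Ox-mtDNA (13.5%, against 12.3% of all tested genes), 4 in mtDNA (10.8%, against 14.3%) and 5 in PBS (13.5%, against 15.1%). Tfeb, Tfe3, Gaa and Naglu were among them in every group, joined by Cd63 in Ox-mtDNA and Arsa in PBS. Gaa (acid alpha-glucosidase), which degrades glycogen, had 72.98, 162 and 3.87 CPM in Ox-mtDNA libraries, 104, 107 and 3.43 CPM in mtDNA libraries and 79.8, 105 and 1.10 CPM in PBS libraries. Naglu, which acts on heparan sulfate, had 23.97, 11.6 and 0.464 CPM in Ox-mtDNA libraries, 25.03, 26.2 and 0.652 CPM in mtDNA libraries and 26.9, 34.6 and 0.911 CPM in PBS libraries. These genes fall outside the rule for naming genes and were chosen after their values were seen. Averaged over the 3 groups, the log2 shift of replicate 3 was -6.40 for Tfeb, -5.08 for Gaa, -5.002 for Tfe3 and -4.37 for Naglu. The exons of Tfeb, Naglu and Gaa were among the richest in guanine and cytosine of the list, at 63.2%, 59.8% and 59.5%, while those of Tfe3, at 52.1%, were at the median of the 37 genes. Across the 37 genes, the shift and this GC content had a Pearson correlation of -0.53 and a Spearman correlation of -0.50, against -0.43 and -0.39 across 16750 tested genes. Genes are not independent replicates and share these 9 libraries, so the correlations describe them without a test. The 6 genes of the list under 45% GC had a median shift of 0.27, the 5 genes between 45% and 50% one of 0.37, the 16 genes between 50% and 55% one of 0.01 and the 9 genes between 55% and 60% one of -0.90. Without replicate 3, Ctsa kept the sign of its difference from PBS in Ox-mtDNA, and Scarb2 did not in mtDNA. Scarb2 in Ox-mtDNA, Ctsa in mtDNA, and Arsb and Glb1 in both also kept theirs. Their groups did not overlap, so leaving out libraries could hardly change that sign.

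**Figure D5:**
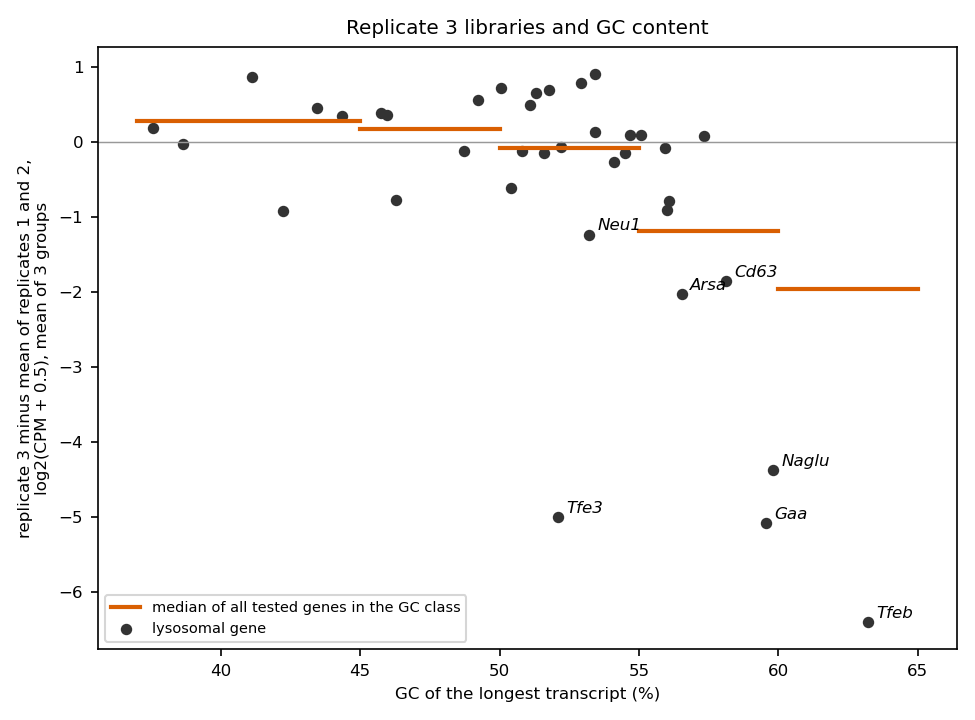
Exon GC content in percent (x axis) against the log2 difference of replicate 3 from the mean of replicates 1 and 2, averaged over Ox-mtDNA, mtDNA and PBS (y axis), with the 37 genes as points and lines for the medians of GC classes over all tested genes. Tfeb, at 63.2% GC, lies lowest at -6.40, and the class medians of all tested genes fall to -1.96 in the class over 60%.

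Of 100 other genes of the lysosome in 6 lists, 99 were matched and 97 tested, and none passed the edgeR quasi-likelihood test after Benjamini-Hochberg adjustment in any of the 3 comparisons, against 0% of all tested genes in each. For Ox-mtDNA against PBS 33 were positive and 64 negative with a median log2 fold change of -0.16, and 1 was higher and 14 lower without overlap of the groups, against 7.39% and 8.08% of all tested genes. At an unadjusted p under 0.05 there were 3 higher and 7 lower of the 97, against 5.88% and 3.93% of all tested genes. Other hydrolases and their activators were 6 positive and 22 negative (median -0.39), other V-ATPase subunits 8 and 6, other membrane proteins 7 and 13, and sorting genes 6 and 7. Genes of nutrient signalling to TFEB were 4 and 14, and protease inhibitors (cystatins and Serpinb6a) 2 and 2.

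Gla (alpha-galactosidase A), an enzyme of glycosphingolipid breakdown, had 36.3, 151 and 54.3 CPM in Ox-mtDNA libraries, 14.6, 12.7 and 48.6 CPM in mtDNA libraries and 10.3, 8.76 and 4.75 CPM in PBS libraries. All Ox-mtDNA libraries were above all PBS libraries, and mtDNA replicate 3 lay with Ox-mtDNA. Its log2 fold change for Ox-mtDNA against PBS was 3.35 (SE 0.76), with an adjusted p of 0.472 by edgeR's quasi-likelihood test and 0.00281 by DESeq2 (Benjamini-Hochberg in both), and 2.496 (SE 0.65) without Ox-mtDNA replicate 2. Gnptab, a subunit of the enzyme that makes the mannose 6-phosphate tag of hydrolases, had 107, 83.6 and 91.98 CPM in Ox-mtDNA libraries, 176, 189 and 103 CPM in mtDNA libraries and 185, 199 and 207 CPM in PBS libraries. Its Ox-mtDNA libraries were the lowest of the 3 groups except for an overlap with mtDNA replicate 3, with a log2 fold change against PBS of -1.07 (SE 0.28), an adjusted p of 0.472 by edgeR and 0.0262 by DESeq2. Gla and Gnptab were the only 2 of these 97 genes that DESeq2 called, both for Ox-mtDNA against PBS. In that comparison DESeq2 called 2.11% of all tested genes. Sumf1, which activates sulfatases such as Arsa and Arsb, had 40.7, 28.9 and 31.99 CPM in Ox-mtDNA libraries, 38.5, 36.3 and 33.2 CPM in mtDNA libraries and 49.1, 57.8 and 71.2 CPM in PBS libraries. All libraries of both DNA-treated groups were below all PBS libraries, with log2 fold changes against PBS of -0.81 (SE 0.26) for Ox-mtDNA and -0.72 (SE 0.25) for mtDNA. The other genes with the smallest p of each list for Ox-mtDNA against PBS were Vps33a (-0.61), Atp6v0a2 (-0.996), Atp6v0e (-0.43), Tmem175 (-0.56), Slc11a1 (1.70), Rragd (2.12), Rragc (0.62), Cst7 (0.45) and Cstb (0.92), each given as a log2 fold change. The values without Ox-mtDNA replicate 2 were -0.0080 for Slc11a1, 0.97 for Rragd, 0.15 for Rragc and -0.23 for Cstb.

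For mtDNA against PBS the other lysosomal genes were 34 positive and 63 negative with a median log2 fold change of -0.13, and 1 was higher and 15 lower without overlap, against 5.58% and 4.96% of all tested genes. Other hydrolases were 9 positive and 19 negative and other V-ATPase subunits 3 and 11. Beside Sumf1, the genes with the smallest p were Hgsnat (-0.74), Atp6v0e (-0.49), Atp6v0b (-0.37), Ctns (-0.66), Slc15a3 (0.72), Vps33a (-0.38), Gnptab (-0.34), Rragd (1.08), Lamtor2 (-0.48), Serpinb6a (-0.28) and Cst7 (0.32). For Ox-mtDNA against mtDNA 55 were positive and 42 negative with a median of 0.03, and other V-ATPase subunits were 11 and 3. The genes with the smallest p were Ctso (-1.04), Gla (1.67), Atp6v0b (0.56), Atp6v0a2 (-0.61), Cln3 (0.68), Slc29a3 (-0.37), Gnptab (-0.73), Igf2r (1.77), Tfec (-1.53), Rragd (1.05), Cstb (0.998) and Cst3 (0.26). Igf2r, the receptor that sorts mannose 6-phosphate tagged hydrolases, had 6.01, 176 and 5.37 CPM in Ox-mtDNA libraries, 22.05, 24.2 and 8.86 CPM in mtDNA libraries and 9.12, 6.70 and 5.62 CPM in PBS libraries. With Ox-mtDNA replicate 2 left out, the value of Igf2r was -1.70, that of Tfec -2.94, that of Rragd -0.09, that of Cstb -0.15, that of Gla 0.84, that of Cln3 0.31, that of Atp6v0b 0.36 and that of Cst3 0.51.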

How the data were processed

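The authors deposited raw, unnormalized counts of fragments per gene for 9 libraries. Per the labels' protocols, TRIzol and RNeasy kits were used for extraction, and RNA was selected with poly-T beads and reverse transcribed from random hexamers. Per the submitters' processing notes, fastp 0.23.4, STAR 2.7.11b and featureCounts 2.0.1 were used with GRCm39. Per the file headers, fragments over exons were counted without strand, and a fragment on several genes was counted for each. Of the 37 genes, 12 share exon bases with another gene model, in 15 pairs, 12 of them on opposite strands, so their counts can hold reads of the partner.

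Genes were kept with filterByExpr at a minimum count of 10. All 9 libraries were fitted in 1 robust quasi-likelihood model with edgeR 4.0.16 in R 4.3.3, with TMM factors, a coefficient per group and 6 residual degrees of freedom, and p-values were adjusted by Benjamini-Hochberg over 17555 genes. CPM used TMM-scaled library sizes, which are set by the 16006182 to 25336538 counts per library in tested genes. Exon GC content was that of the longest transcript of a gene in the GENCODE reference given here. The fit code was also run on simulated counts with a common dispersion and no replicate effect. That run does not cover shifts like those of replicate 3. The alternatives were DESeq2 1.42.0, limma 3.58.1 (voom), other scalings and filters, only the libraries compared, the replicate block, and left-out libraries. Groups and replicate numbers came from the titles. Same-numbered libraries deviated together in all 9 pairs (correlations of 0.498 to 0.905, over a limit of 0.1), so a fit with the number as a block was also made. Libraries of replicates 1 and 2 with different numbers correlated by 0.548 to 0.739 between groups, so the data set replicate 3 apart but do not tell numbers 1 and 2 from each other, and no label states a pairing.

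The 37 genes and all lists were chosen with earlier results of these data known. Genes named were those with the 8 smallest p in each comparison, the 8 highest RPKM, the highest and lowest RPKM of each role of 5 or more genes, a fixed list of 19, and of each other list the 2 with the smallest p in each comparison. Tpp1, Gaa and Naglu fall outside this rule. Proteins and GRCm39 sequence were not used here.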

Additional observations from a re-analysis of the deposited data

How the results depend on the processing

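Members called stayed at 0 of 37 in all 3 comparisons under all 19 alternatives. Over all tested genes the calls for Ox-mtDNA against PBS were 370 with DESeq2, 25 with replicates 1 and 2 only and 1 with the replicate block, against 0 in the reported fit. For mtDNA against PBS DESeq2 called 14, and for Ox-mtDNA against mtDNA 1. The replicate block gave 6, 3 and 3 of the 37 genes at an unadjusted p under 0.05 for Ox-mtDNA against PBS, mtDNA against PBS and Ox-mtDNA against mtDNA, against 19.1%, 5.68% and 6.81% of all tested genes, and changed no call among the 37.

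The median log2 fold change of the 37 genes for Ox-mtDNA against PBS was 0.0059 with limma-voom, -0.15 without a filter and -0.15 with replicates 1 and 2 only and the replicate block, and ran between -0.17 and 0.10 with any 1 library left out. For mtDNA against PBS it was -0.12 with upper quartile scaling, -0.14 with limma-voom, -0.21 without a filter, -0.14 with the 6 libraries compared, -0.14 with the replicate block, -0.11 with replicates 1 and 2 only, -0.13 with these and the replicate block, and between -0.28 and -0.090 with any 1 library left out. For Ox-mtDNA against mtDNA it was -0.03 with limma-voom and ran between -0.05 and 0.08 with any 1 library left out. The cause of these moves was not tested. Other scalings moved the median of all genes by at most 0.04. With any 1 library left out, 0 to 0 genes were called in each comparison, of all tested genes and of the 37. The spread between libraries, with a median SE of 0.37 on the log2 scale and low replicate 3 values for Tfeb, Tfe3, Gaa and Naglu, limits what differences can be seen.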
